A study of Homo sapiens with 9 samples.

Results

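The genes described here are 53 human genes of DNA replication licensing and of the replication fork, chosen by symbol from the MCM, ORC, GINS, polymerase, RFC and RPA subunits and the factors that load, activate and protect them. All 53 were found in a counts table of 11350 genes measured by RNA-seq. The cells were HCT116, an established colorectal carcinoma line, in 3 forms with 3 libraries each: unedited parental cells (HUWE1-P), cells edited by CRISPR with the wild-type cysteine put back in the catalytic site of the ubiquitin ligase HUWE1 (HUWE1-WT), and cells edited so that this cysteine became a serine (HUWE1-CS). The edited cells were transfected with guides and a repair template carrying blasticidin resistance, selected with puromycin and blasticidin and grown from single cells, steps that the parental cells did not go through. None of the lines received a treatment, and whether the 3 libraries of an edited line came from 1 clone is not given in the sources used here. The study describes its RNA-seq replicates as biological and its repeated measurements as coming from different samples, and the p-values measure the spread between these libraries.

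Replication is prepared in G1 phase, when the origin recognition complex (ORC1-6), CDC6 and CDT1 load the ring-shaped MCM2-7 helicase onto DNA, and geminin (GMNN) blocks reloading once S phase has begun. The kinase CDC7-DBF4 and a set of firing factors then join CDC45 and the GINS complex to each ring to make an active helicase. Polymerase α with primase starts every strand, polymerases ε and δ extend the leading and lagging strands on the sliding clamp PCNA, which the RFC complex loads, and FEN1 and LIG1 trim and seal the Okazaki fragments. Many of these genes are textbook targets of the E2F transcription factors, which drive the entry into S phase.

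The E2F letters searched in the promoters were TTTCCCGC, TTTGGCGC, TTTCGCGC and TTTGCCGC on either strand, in the 250 bases before and 50 bases after each RefSeq start site. RefSeq promoters (GRCh38.p14) were matched by symbol for 45 of the 53 members, and 22 of these 45 held such letters (48.9%). Among the 9041 genes of the counts table with a promoter the share was 7.01%. Counted by promoter, 22 of 58 member promoters (37.9%), 5.14% of the promoters of genes in the counts table and 3.31% of all 35116 promoters held them. CCAAT was found in 51.7% of the member promoters, 34.9% of those of genes in the counts table and 34.6% of all promoters. For TTTGAA the shares were 3.45%, 9.88% and 15.2%. These shares are descriptions without a test, and a match of letters is not a measured binding site. Of the 13 members with a promoter that passed the test in at least 1 comparison below, 7 held E2F letters and are shown, together with MCM7, whose level differed little between the lines. Each line gives the reference sequence 5′ to 3′ on the strand of the gene, with the matching letters in capitals; overlapping matches run together.
MCM6, chr2:135876509-135876608, minus strand: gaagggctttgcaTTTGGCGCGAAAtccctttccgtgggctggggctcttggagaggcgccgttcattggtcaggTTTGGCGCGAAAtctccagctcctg
MCM7, chr7:100101551-100101610, minus strand: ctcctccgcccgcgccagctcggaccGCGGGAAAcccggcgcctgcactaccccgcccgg
GMNN, chr6:24775307-24775366, plus strand: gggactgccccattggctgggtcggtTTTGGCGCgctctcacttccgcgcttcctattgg
GINS2, chr16:85688955-85689014, minus strand: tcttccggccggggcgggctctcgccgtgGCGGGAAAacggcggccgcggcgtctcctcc
POLE, chr12:132687343-132687402, minus strand: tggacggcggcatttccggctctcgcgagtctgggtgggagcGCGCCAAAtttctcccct
CLSPN, chr1:35769976-35770035, minus strand: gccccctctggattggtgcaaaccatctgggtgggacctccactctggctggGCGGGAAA
PCNA, chr20:5126648-5126707, minus strand: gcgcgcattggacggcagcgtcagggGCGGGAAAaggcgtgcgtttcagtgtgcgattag
LIG1, chr19:48170425-48170484, minus strand: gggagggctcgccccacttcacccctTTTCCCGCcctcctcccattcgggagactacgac
The MCM6 promoter held 4 matches, in the form of TTTGGCGCGAAA at 2 places, each of which holds 2 overlapping matches on opposite strands. The first MCM6 match starts 152 bases before the start site, and that of PCNA 59 bases before it. MCM7 held 2 matches, of which the farther one is shown. DBF4, RFC1, RFC5, FEN1, ORC1 and TIMELESS had a promoter in the table without these letters, which says only that the letters are not in that window.

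Library totals lay between 1610984 and 2060349 counts, so 3 counts, the floor used here, correspond to 1.46 to 1.86 CPM, which are counts set relative to library size with edgeR's TMM factors; this floor covers counting error only, while the intervals of fold changes below come from the fit and include the spread between libraries. Levels below are CPM per library, and a gene was called when edgeR's quasi-likelihood test over all 11350 genes gave a false discovery rate (FDR, by the Benjamini-Hochberg method) no higher than 0.01. HUWE1 itself, the edited gene, was measured at 561, 545 and 522 CPM in HUWE1-P, 498, 453 and 455 in HUWE1-WT and 345, 323 and 339 in HUWE1-CS cells, and counts per gene do not show the exchanged codon. Of 8 colon epithelial markers 6 were in the table, with VIL1 and CDX1 not listed. In each comparison of HUWE1-CS cells 2 of these 6 were called higher and 2 lower (66.7%, where 17.0% and 15.5% of all genes were called). Of 13 markers of fibroblasts, leukocytes and endothelium only COL1A1 was in the table. It was at 18.0 to 25.6 CPM in the controls and 8.71 to 14.8 in HUWE1-CS cells. COL1A1 was called lower in both comparisons (log2 -0.96 and -0.88, adjusted p = 9.01e-04 and 0.00346, edgeR). RNA from bulk cells cannot tell fewer cells in S phase from less RNA per cell.

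In HUWE1-CS cells most replication genes had somewhat lower levels than in either control, with called changes in single subunits of the MCM2-7 helicase, the clamp loader and the firing machinery and a small set that went up. Against HUWE1-P cells 12 of 53 members were called (22.6%, where 17.0% of all genes were), 11 of them lower (20.8%, against 8.58% of all genes) and 1 higher (1.89%, against 8.46%). Against HUWE1-WT cells 9 were called (17.0%, where 15.5% of all genes were), 7 lower (13.2%, against 8.08%) and 2 higher (3.77%, against 7.42%). Both counts include DBF4, DONSON, MCM4, MCM6 and RFC5, so 16 members were called in at least 1 comparison (30.2%, where 20.3% of all genes were) and 37 in neither. Both comparisons use the same HUWE1-CS libraries and are not independent. The median log2 fold change of the members was -0.12 in each comparison, where that of all genes was -0.01 against HUWE1-P and -0.00 against HUWE1-WT cells, and 37 and 38 of the 53 lay below zero. The number of calls depended on the tool: DESeq2 at the same FDR called 3 members against HUWE1-P cells (5.66%, where 9.59% of all genes were), namely MCM4, MCM6 and CLSPN, and 4 against HUWE1-WT cells (7.55%, where 8.79% of all genes were), namely MCM4, MCM6, RFC5 and LIG1. The other 9 and 5 calls below were made by edgeR and not by DESeq2, whose adjusted p for them was 0.0108 to 0.0615 and 0.0125 to 0.0562. The count against HUWE1-P cells changed with the library left out: it was 4 without HUWE1-P replicate 3, 5 without HUWE1-CS replicate 1, 7 without HUWE1-P replicate 1, and 8 to 12 without any other library. Against HUWE1-WT cells it stayed between 6 and 9. The share of all genes called in these fits is not given here, so this loss is not shown to be particular to the members.

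In HUWE1-WT against HUWE1-P cells, edgeR called 0 of 53 members (0.0617% of all genes were), and DESeq2 and limma-voom called 0 as well. Only CDC7 had an unadjusted p under 0.05, with a log2 fold change of -0.29 (95% interval -0.56 to -0.03) and an adjusted p of 0.832 (edgeR). The 95% interval of the difference stayed within 1.3-fold either way for 45 of the 53 members in this comparison. It did so for 23 members in HUWE1-CS against HUWE1-P and for 24 in HUWE1-CS against HUWE1-WT cells.

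The 3 HUWE1-CS libraries lay below all 6 control libraries for 16 members (30.2%), where 13.4% of all genes did, and above all 6 for 3 members (5.66%), where 12.9% did. The 16 were ORC1, CDC6, GMNN, MCM2, MCM4, MCM6, DBF4, GINS2, DONSON, PRIM2, POLD3, RFC1, RFC5, FEN1, TIPIN and CLSPN, and the 3 were PCNA, LIG1 and TIMELESS. In a comparison with the mean of both controls in the same fit, chosen after the data were seen, 18 members were called, 15 lower and 3 higher, while 21.4% of all genes were called, 10.7% higher and 10.7% lower. These are the 16 members called before together with CDC6 and ORC2.

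**Figure D1:**
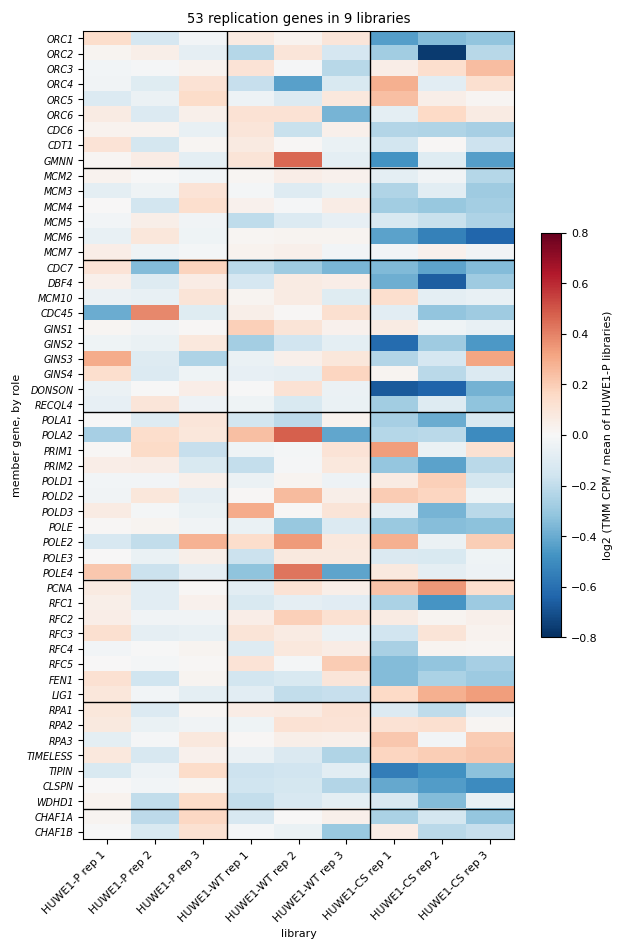
Each row is 1 of the 53 members, ordered by role and separated by lines, and each column 1 of the 9 libraries; colour gives the log2 ratio of CPM to the mean of the 3 HUWE1-P libraries, blue lower and red higher. MCM6, DONSON and CLSPN are blue in all 3 HUWE1-CS libraries, and PCNA, LIG1 and TIMELESS are red there.

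**Figure D2:**
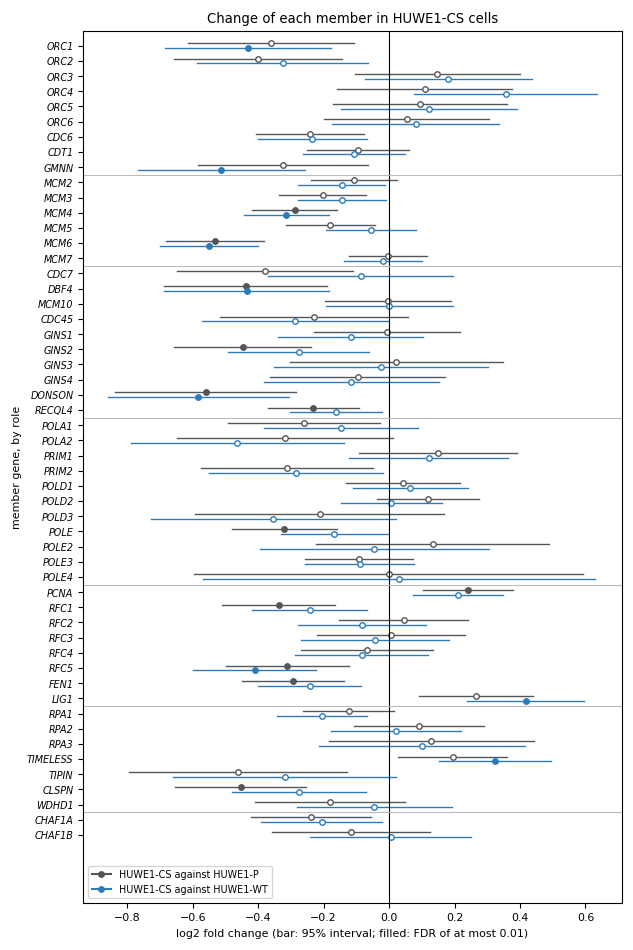
Log2 fold change of each member in HUWE1-CS cells, against HUWE1-P cells in grey and HUWE1-WT cells in blue, with 95% intervals as bars and filled points at an FDR of at most 0.01 (edgeR). 12 points are filled in the comparison with HUWE1-P and 9 in that with HUWE1-WT cells.

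Summed over the 53 members, the level was 7460.2, 7189 and 7475 CPM for HUWE1-P, 7244, 7346 and 7326 CPM for HUWE1-WT and 6759, 6820.2 and 6625 CPM for HUWE1-CS cells. The HUWE1-CS libraries were the 3 lowest, and the mean was -8.67% against HUWE1-P and -7.81% against HUWE1-WT cells. By role, the HUWE1-CS mean differed by most for helicase activation (-14.6% and -12.1%) and the MCM2-7 core (-11.6% and -11.1%), where all HUWE1-CS libraries were below all controls, and for the pair of chromatin assembly genes (-12.4% and -9.00%), where they were not. Licensing genes differed by -8.79% and -8.54%, also below all controls. In polymerases and primase (-5.39% and -5.23%), RPA and fork protection (-5.49% and -3.86%) and clamp, loader and Okazaki genes (-2.05% and -1.68%) the HUWE1-CS and control libraries overlapped. Differences between these groups were not tested, and a sum is carried mostly by its most abundant members.

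Among the 9 licensing genes 0 were called against HUWE1-P cells, where 17.0% of all genes were. Against HUWE1-WT cells 2 were called, both lower (22.2%, where 8.08% of all genes were lower). The median log2 fold changes were -0.10 and -0.11. ORC1, the ATPase subunit of the origin recognition complex, was at 70.1, 57.8 and 62.6 CPM in HUWE1-P, 66.6, 64.9 and 68.0 in HUWE1-WT and 46.9, 49.9 and 51.1 in HUWE1-CS cells. All 3 HUWE1-CS libraries were below the controls, and ORC1 fell against HUWE1-WT cells (log2 -0.43, 95% interval -0.68 to -0.18, adjusted p = 0.00711, edgeR), a call that was lost without any 1 of the HUWE1-WT or HUWE1-CS libraries. Against HUWE1-P cells its value was -0.36 (adjusted p = 0.0264, edgeR). GMNN, which encodes the CDT1 inhibitor geminin, read 67.0, 69.0 and 62.6 CPM in HUWE1-P, 71.3, 91.1 and 62.8 in HUWE1-WT and 47.5, 61.8 and 48.8 in HUWE1-CS cells. The HUWE1-WT library of replicate 2 stood far above the other controls. GMNN fell against HUWE1-WT cells by 0.51 on the log2 scale (95% interval -0.77 to -0.26, adjusted p = 0.00129, edgeR), and without that library the value was -0.34 and did not pass (adjusted p = 0.0789, edgeR). The call was also lost without HUWE1-CS replicate 1 or 3. Against HUWE1-P cells the difference was -0.32 (adjusted p = 0.0558, edgeR).

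CDC6, the loader ATPase and a reported substrate of HUWE1, was measured at 179, 178 and 168 CPM in HUWE1-P, 187, 155 and 179.7 in HUWE1-WT and 149, 148 and 146 in HUWE1-CS cells. The HUWE1-CS values were the lowest and nearly alike, but the log2 fold changes of -0.24 and -0.23 did not pass the FDR of 0.01 (adjusted p = 0.0211 and 0.0293, edgeR). ORC2 had 56.4, 40.3 and 58.6 CPM in HUWE1-CS cells, where replicate 2 was the lowest of all 9 libraries, and 69.5, 70.7 and 65.0 in HUWE1-P cells; its log2 fold change was -0.40 (adjusted p = 0.0134, edgeR). Fold changes of ORC3, ORC4, ORC5 and ORC6 lay above zero in both comparisons, from 0.05 to 0.36, and none passed. For CDT1, the partner of CDC6 in loading, the 95% interval ran from -0.25 to 0.06 against HUWE1-P and from -0.26 to 0.05 against HUWE1-WT cells.

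Within the MCM2-7 core, whose 6 subunits form the ring in equal number, the log2 fold changes ran from -0.53 to -0.00 against HUWE1-P and from -0.55 to -0.02 against HUWE1-WT cells, and differences between subunits were not tested. All 6 lay below zero in both comparisons, with medians of -0.19 and -0.14. MCM4 and MCM6 were called lower in both (33.3%, where 8.58% and 8.08% of all genes were). MCM6 was measured at 251, 278 and 255 CPM in HUWE1-P, 264, 266 and 265 in HUWE1-WT and 194, 179.8 and 168 in HUWE1-CS cells. No HUWE1-CS library came near a control library. MCM6 fell by 0.53 on the log2 scale against HUWE1-P (95% interval -0.68 to -0.38, adjusted p = 1.05e-08, edgeR) and by 0.55 against HUWE1-WT cells (95% interval -0.70 to -0.40, adjusted p = 4.15e-09, edgeR), which is a drop of 30.9% and 31.8%. It had the smallest p-value of the 53 members in both comparisons and stayed called under every alternative run.

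MCM4 was at 487, 440.0 and 534 CPM in HUWE1-P, 499, 484 and 507 in HUWE1-WT and 401, 395 and 403 in HUWE1-CS cells, the last 3 nearly alike and below all controls. It fell by 0.29 against HUWE1-P (adjusted p = 3.16e-04, edgeR) and by 0.31 on the log2 scale against HUWE1-WT cells (adjusted p = 9.85e-05, edgeR), and the first call was lost without HUWE1-P replicate 3 (log2 -0.21, adjusted p = 0.0289, edgeR). MCM4 starts 7 bases from PRKDC on the opposite strand, and PRKDC had log2 fold changes of -0.04 and 0.13 in the same comparisons, neither of which passed. MCM7, at 649, 611 and 619.6 CPM in HUWE1-P, 639, 644 and 616 in HUWE1-WT and 618, 641 and 614 in HUWE1-CS cells, overlapped completely between the lines. Its 95% interval was -0.12 to 0.12 on the log2 scale against HUWE1-P and -0.14 to 0.10 against HUWE1-WT cells.

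The ratio of MCM6 to MCM7 counts, which does not depend on the scaling of a library, was 0.386, 0.456 and 0.411 in HUWE1-P, 0.413, 0.412 and 0.430 in HUWE1-WT and 0.314, 0.280 and 0.274 in HUWE1-CS libraries. The HUWE1-CS ratios were all below the control ratios. The pair sets the member with the smallest p-value against the core subunit with fold changes nearest zero, so this is a description only. MCM2, MCM3 and MCM5 did not pass in either comparison; MCM2 was -0.11 and -0.14, MCM3 -0.20 and -0.14, and MCM5 -0.18 and -0.06 on the log2 scale. MCM5 was 315, 331 and 314 CPM in HUWE1-P, 278, 297 and 306 in HUWE1-WT and 294, 283 and 270.0 in HUWE1-CS cells, so that HUWE1-WT and HUWE1-CS libraries overlapped.

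Levels per kb of transcript depended on which length was taken, and only what held under both lengths is given as an order. The median length of a gene's annotated transcripts was planned, and the length of the transcript with the longest coding sequence was put first after the values were seen. With the latter, MCM7 was highest of the core in HUWE1-P cells with 207 ± 6.67 CPM per kb (SD, n = 3) and MCM6 lowest with 69.6 ± 3.97, while MCM3 (130.0 ± 8.85), MCM4 (116 ± 11.3), MCM2 (107 ± 1.79) and MCM5 (92.5 ± 2.79) lay between them. With the median length MCM7 was at 254 ± 8.19 and MCM6 again at 69.6 ± 3.97 CPM per kb, so that they kept the ends, but MCM3 moved from the second place of the core to the fifth. In HUWE1-CS cells MCM6 was at 48.2 ± 3.43 and MCM7 at 206 ± 4.83 CPM per kb with the longest coding transcript. In ORC the lowest level in HUWE1-P cells was that of ORC4 under both lengths (7.35 ± 0.567 and 7.70 ± 0.595 CPM per kb). ORC2 went from 15.96 ± 0.698 with the longest coding transcript to 125 ± 5.48 with the median length, above MCM6, and RFC1 from 32.3 ± 1.64, near the lowest of RFC, to 270.5 ± 13.7, the highest, so no order within RFC is given.

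**Figure D3:**
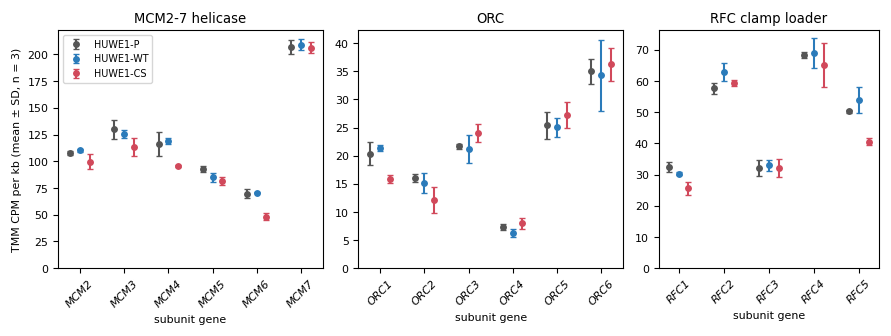
CPM per kb of the transcript with the longest coding sequence (mean ± SD of 3 libraries) for the subunits of MCM2-7, ORC and the RFC clamp loader in HUWE1-P (grey), HUWE1-WT (blue) and HUWE1-CS cells (red); each panel has its own axis from 0. MCM7 lies near 207 CPM per kb in all lines, and MCM6 drops from 69.6 in HUWE1-P to 48.2 in HUWE1-CS cells; the places of ORC2 and RFC1 depend on the length taken.

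Of the 10 genes that activate the helicase 4 were called lower against HUWE1-P cells (40.0%, where 8.58% of all genes were). Against HUWE1-WT cells 2 were (20.0%, where 8.08% of all genes were). The medians were -0.23 and -0.14, and none was called higher. DBF4, the regulatory subunit of the CDC7 kinase, was at 72.0, 65.1 and 72.8 CPM in HUWE1-P, 63.7, 73.1 and 72.7 in HUWE1-WT and 53.4, 44.2 and 57.5 in HUWE1-CS cells, the last 3 below all controls. It fell by 0.44 on the log2 scale in both comparisons (adjusted p = 0.00497 and 0.00604, edgeR), and each call was lost without HUWE1-CS replicate 1 or 2 and without 2 of the libraries of its control, replicates 1 and 3 of HUWE1-P and 2 and 3 of HUWE1-WT (log2 from -0.51 to -0.33 over the alternatives in each comparison). Both calls were also lost with a replicate block and a GC correction together (adjusted p = 0.0168 and 0.0176, edgeR), though not with the block alone. The catalytic subunit CDC7 had 63.9, 46.6 and 67.0 CPM in HUWE1-P, 51.0, 48.5 and 45.9 in HUWE1-WT and 46.3, 44.2 and 46.4 in HUWE1-CS cells. Here HUWE1-WT and HUWE1-CS libraries overlapped, and neither log2 fold change of HUWE1-CS cells passed (-0.38 and -0.09).

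DONSON, a factor that brings GINS to the loaded ring and protects forks, was measured at 54.0, 55.6 and 57.8 CPM in HUWE1-P, 55.6, 60.5 and 54.1 in HUWE1-WT and 35.0, 35.7 and 43.0 in HUWE1-CS cells. The HUWE1-CS libraries lay below all controls, and DONSON had the lowest fold change of the 53 members in both comparisons, falling by 0.56 against HUWE1-P (95% interval -0.84 to -0.28, adjusted p = 0.00106, edgeR) and by 0.58 on the log2 scale against HUWE1-WT cells (95% interval -0.86 to -0.31, adjusted p = 7.23e-04, edgeR). It overlaps SON on the opposite strand by 17940 bases in the GRCh37 annotation, and reads of the 2 genes cannot be told apart where counting ignored strand, which the sources used here do not give. The call against HUWE1-P cells was lost without HUWE1-CS replicate 1 or 2 (adjusted p of up to 0.0167 over the alternatives, edgeR or DESeq2). SON was at -0.18 and -0.12 on the log2 scale and did not pass.

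GINS2 alone of the 4 GINS subunits was called, against HUWE1-P cells, with 102, 100.5 and 111 CPM in HUWE1-P, 86.3, 93.8 and 98.8 in HUWE1-WT and 68.2, 85.6 and 76.1 in HUWE1-CS cells. The HUWE1-WT values lay between those of the other lines, just above the highest HUWE1-CS library. GINS2 fell by 0.45 on the log2 scale (95% interval -0.66 to -0.24, adjusted p = 5.37e-04, edgeR), and stood at -0.28 against HUWE1-WT cells (adjusted p = 0.0501, edgeR). The call was lost without HUWE1-P replicate 3 or HUWE1-CS replicate 1 (adjusted p of up to 0.0138 over the alternatives, edgeR). The fold changes of GINS1, GINS3 and GINS4 were between -0.12 and 0.02 in both comparisons with wider intervals, and the difference between subunits was not tested. CDC45, which binds MCM2-7 with GINS, varied widely among the HUWE1-P libraries (39.1, 67.4 and 48.2 CPM) and was 53.3, 51.8 and 56.4 in HUWE1-WT and 48.7, 41.4 and 42.4 in HUWE1-CS cells. All 3 HUWE1-CS values lay inside the HUWE1-P range, with log2 fold changes of -0.23 and -0.29 (adjusted p = 0.252 and 0.143, edgeR).

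RECQL4, a helicase that takes part in origin firing, was at 299, 335 and 304 CPM in HUWE1-P, 305, 287 and 301 in HUWE1-WT and 257, 290.4 and 250.2 in HUWE1-CS cells. Replicate 2 of the HUWE1-CS libraries lay within the controls. RECQL4 fell by 0.23 on the log2 scale against HUWE1-P cells (adjusted p = 0.00857, edgeR), a call that was lost in 7 of 9 fits with 1 library left out, with RLE size factors and with the trend with transcript length removed, with values from -0.30 to -0.18 over the alternatives. MCM10, which helps the active helicase off the origin, had log2 fold changes of -0.00 and 0.00 with 95% intervals of -0.20 to 0.19 and -0.19 to 0.19.

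Among the 11 polymerase and primase genes POLE alone was called, and only against HUWE1-P cells (9.09%, where 17.0% of all genes were called). POLE, the catalytic subunit of the leading-strand polymerase, was at 196, 198 and 191 CPM in HUWE1-P, 188, 158 and 181 in HUWE1-WT and 158, 154 and 156 in HUWE1-CS cells. The HUWE1-P libraries stood clear of the HUWE1-CS libraries, while HUWE1-WT replicate 2 reached their level. POLE fell by 0.32 on the log2 scale against HUWE1-P cells (95% interval -0.48 to -0.16, adjusted p = 0.00122, edgeR), and against HUWE1-WT cells it stood at -0.17 (edgeR, adjusted p = 0.130). When a trend of the libraries with transcript length was removed, the value against HUWE1-P cells was -0.20 and no longer passed (adjusted p = 0.0419, edgeR). The other 3 subunits of polymerase ε had values from -0.09 to 0.13 against HUWE1-P cells. POLE4, the member with the lowest level, was at 7.56 to 13.6 CPM over the 9 libraries, and its 95% interval of -0.60 to 0.59 spans changes in either direction.

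For polymerase δ, POLD1 and POLD2 had intervals within 1.3-fold in both comparisons, while POLD3 (-0.21 and -0.35) was measured less precisely at 19.3 to 30.7 CPM. POLA2, the second subunit of polymerase α, had the smallest p-value of the group against HUWE1-WT cells, at 33.5, 44.3 and 42.9 CPM in HUWE1-P, 47.5, 56.2 and 30.2 in HUWE1-WT and 34.4, 34.6 and 28.4 in HUWE1-CS cells. HUWE1-WT replicate 3 was among the HUWE1-CS values, and the log2 fold change of -0.46 did not pass (adjusted p = 0.0275, edgeR). The primase genes PRIM1 (0.15 and 0.12) and PRIM2 (-0.31 and -0.29) lay on opposite sides of zero, and neither passed.

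The clamp, clamp loader and Okazaki group held calls in both directions. Against HUWE1-P cells 1 of 8 was higher (12.5%, where 8.46% of all genes were) and 3 were lower (37.5%, where 8.58% were). Against HUWE1-WT cells 1 was higher (12.5%, where 7.42% were) and 1 lower (12.5%, where 8.08% were). PCNA, the sliding clamp, was at 299.8, 269 and 287 CPM in HUWE1-P, 269, 309 and 295 in HUWE1-WT and 334, 363 and 314 in HUWE1-CS cells. All HUWE1-CS libraries were above all controls. PCNA rose by 0.24 on the log2 scale against HUWE1-P cells (95% interval 0.10 to 0.38, adjusted p = 0.00540, edgeR) and had a value of 0.21 against HUWE1-WT cells (adjusted p = 0.0178, edgeR). The call was lost with total counts as the scaling, without HUWE1-P replicate 2 or 3 or HUWE1-CS replicate 1 or 2, and with the trend with transcript length removed, where the value was 0.11 (adjusted p = 0.205, edgeR). PCNA is also a known p53 target, and its head-to-head neighbour CDS2 had values of -0.35 and -0.39 that did not pass.

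LIG1, the ligase that seals Okazaki fragments, was measured at 135, 125 and 120.0 CPM in HUWE1-P, 119, 110.2 and 111 in HUWE1-WT and 141, 154 and 159.7 in HUWE1-CS cells, the last 3 above all controls. It rose by 0.42 on the log2 scale against HUWE1-WT cells (95% interval 0.24 to 0.60, adjusted p = 1.62e-04, edgeR), a call kept in every alternative run. Against HUWE1-P cells its value was 0.27 (adjusted p = 0.0161, edgeR). FEN1, the flap nuclease that acts before LIG1, went the other way, with 249.5, 205 and 232 CPM in HUWE1-P, 207, 210.5 and 245 in HUWE1-WT and 180.4, 192 and 187 in HUWE1-CS cells. FEN1 fell by 0.29 against HUWE1-P cells (95% interval -0.45 to -0.14, adjusted p = 0.00244, edgeR) and was -0.24 on the log2 scale against HUWE1-WT cells (adjusted p = 0.0163, edgeR). The FEN1 call was lost without HUWE1-P replicate 1 or 3 or HUWE1-CS replicate 1 or 3 (adjusted p of up to 0.0473 over the alternatives, edgeR). FEN1 overlaps FADS2 by 4259 bases on the same strand, and FADS2 (0.20 and -0.12) did not pass in either comparison. How reads shared by the 2 genes were counted is not given in the sources used here. The ratio of LIG1 to FEN1 counts was 0.540, 0.607 and 0.517 in HUWE1-P, 0.577, 0.523 and 0.453 in HUWE1-WT and 0.783, 0.799 and 0.854 in HUWE1-CS libraries. Every HUWE1-CS ratio was above every control ratio, but the pair was picked for its opposite directions, so this is a description only. Of the 6 such ratios computed, those of MCM4 to MCM7 and GMNN to CDT1 also stood apart from all controls in HUWE1-CS cells, and those of DBF4 to CDC7 and RFC5 to RFC4 overlapped with them. All 6 are descriptions without a test.

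Of the 5 clamp loader subunits the large subunit RFC1 and the small subunit RFC5 were called lower. RFC1 was at 163, 149 and 162 CPM in HUWE1-P, 145, 150.0 and 148 in HUWE1-WT and 132, 114 and 129 in HUWE1-CS cells, and it fell by 0.34 on the log2 scale against HUWE1-P cells (95% interval -0.51 to -0.17, adjusted p = 0.00162, edgeR). That call was lost without HUWE1-P replicate 1 or 3 or HUWE1-CS replicate 2. RFC5 was at 124, 122 and 124 CPM in HUWE1-P, 133, 122 and 142 in HUWE1-WT and 96.7, 98.7 and 102 in HUWE1-CS cells. Neither gene overlapped between HUWE1-CS cells and the controls. RFC5 fell by 0.31 against HUWE1-P (adjusted p = 0.00909, edgeR) and by 0.41 on the log2 scale against HUWE1-WT cells (adjusted p = 4.23e-04, edgeR), and the first call was lost in 8 of 9 fits without 1 library, with limma-voom, with RLE size factors and with only the 2 lines compared (values from -0.35 to -0.29 over the alternatives), the second without HUWE1-WT replicate 3 (adjusted p = 0.0109, edgeR). RFC5 overlaps WSB2 by 444 bases on the opposite strand, and WSB2 itself was called lower in both comparisons (-0.50 and -0.57), so that the share of its reads in the RFC5 count was not tested. RFC2, RFC3 and RFC4 had 95% intervals within 1.3-fold in both comparisons.

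**Figure D4:**
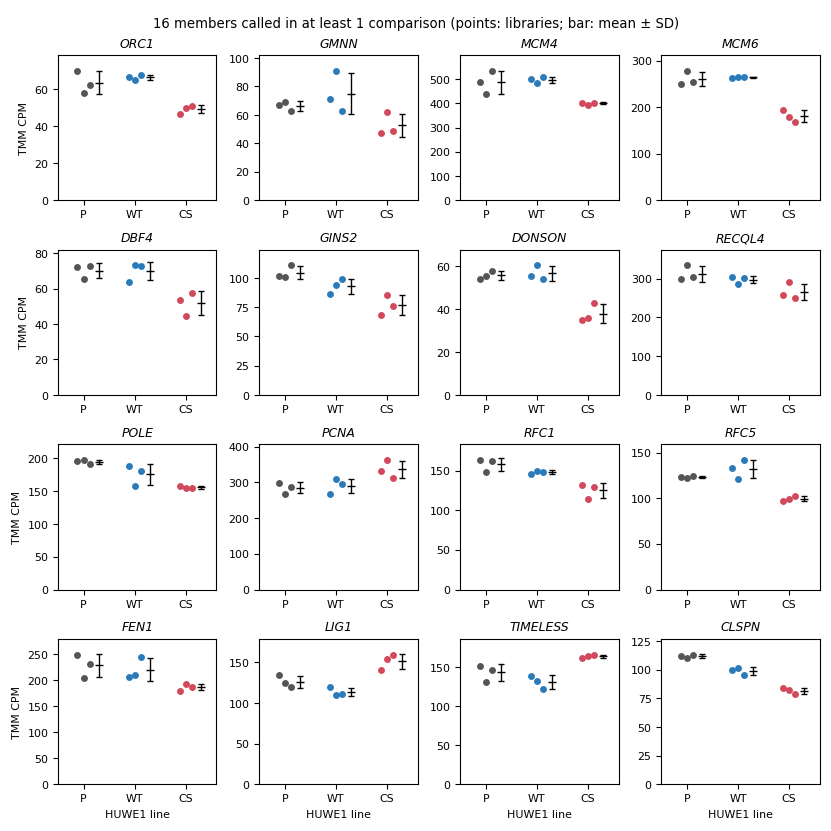
CPM of the 16 members called in at least 1 comparison, with a point for each library of the parental (P), HUWE1-WT and HUWE1-CS lines and the mean ± SD (n = 3) beside it; each axis starts at 0. PCNA, LIG1 and TIMELESS are above all controls in HUWE1-CS cells, and MCM6 falls from 251 to 278 CPM in HUWE1-P to 168 to 194 CPM in HUWE1-CS cells.

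In the group of RPA and fork protection, CLSPN was called lower against HUWE1-P and TIMELESS higher against HUWE1-WT cells. Each was 1 of 7 genes (14.3%), where 8.58% of all genes were lower and 7.42% higher in these comparisons. CLSPN encodes Claspin, which links the fork to the checkpoint kinase ATR, and was at 112, 111 and 113 CPM in HUWE1-P, 100.2, 101 and 95.4 in HUWE1-WT and 84.3, 82.2 and 79.0 in HUWE1-CS cells. The 3 lines did not overlap with one another. CLSPN fell by 0.45 on the log2 scale against HUWE1-P cells (95% interval -0.65 to -0.25, adjusted p = 2.16e-04, edgeR), a call kept in every alternative run, and was -0.28 against HUWE1-WT cells (adjusted p = 0.0394, edgeR). HUWE1-WT against HUWE1-P cells gave -0.18 (adjusted p = 0.908, edgeR).

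TIMELESS and TIPIN form a complex that steadies the fork together with Claspin, and their values lay on opposite sides of zero. TIMELESS was at 152, 131 and 146 CPM in HUWE1-P, 138, 133 and 122 in HUWE1-WT and 161, 164 and 166 in HUWE1-CS cells and rose by 0.32 on the log2 scale against HUWE1-WT cells (95% interval 0.15 to 0.49, adjusted p = 0.00263, edgeR). Without HUWE1-WT replicate 3 the value was 0.27 and did not pass (adjusted p = 0.0362, edgeR). TIPIN was at 32.9, 34.8 and 39.5 CPM in HUWE1-P, 31.9, 32.2 and 33.7 in HUWE1-WT and 24.3, 25.5 and 28.4 in HUWE1-CS cells, with log2 fold changes of -0.46 and -0.32 that did not pass (adjusted p = 0.0302 and 0.175, edgeR). Its HUWE1-CS libraries were nevertheless all below the controls. The single-strand binding subunits RPA1 (-0.12 and -0.20), RPA2 (0.09 and 0.02) and RPA3 (0.13 and 0.10) did not pass. CHAF1A and CHAF1B, subunits of the histone chaperone that works at PCNA, did not pass either; CHAF1A was -0.24 and -0.21.

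Called members were found both with and without E2F letters in the promoter. Of the 22 with the letters 4 were called lower (18.2%) and 1 higher (4.55%) against HUWE1-P cells, with a median of -0.16. Of the 23 without them 4 were called lower (17.4%) and 0 higher, with a median of -0.12. Among all genes 8.58% were lower and 8.46% higher in this comparison. Against HUWE1-WT cells 2 of 22 (9.09%) and 3 of 23 (13.04%) were called lower, where 8.08% of all genes were. In each set 1 was higher (4.55% and 4.35%, where 7.42% of all genes were). The medians of the sets were -0.13 and -0.08. No difference between the sets was tested. MCM6 and MCM7, both with such letters in the sequences shown above, and LIG1 and PCNA, both higher, belong to the same set.

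Over all genes, 8.58% were called lower and 8.46% higher against HUWE1-P cells, and 8.08% and 7.42% against HUWE1-WT cells. The lists that follow were drawn from general knowledge with earlier results of these data known, so their shares are descriptions only. Of 48 other genes of replication 7 were called lower and 3 higher against HUWE1-P cells (14.6% and 6.25%) with a median of -0.10. Against HUWE1-WT cells 7 were lower and 4 higher (14.6% and 8.33%) with a median of -0.03. TONSL, which binds unmarked histones behind the fork, had the smallest p-value, with 229.7, 246 and 222 CPM in HUWE1-P, 242, 216 and 205 in HUWE1-WT and 152, 172 and 164 in HUWE1-CS cells (log2 -0.51, adjusted p = 1.35e-07, edgeR). Of 18 E2F, pocket protein and cyclin genes 3 were called lower and 1 higher against HUWE1-P cells (16.7% and 5.56%). Against HUWE1-WT cells 4 were lower and 2 higher (22.2% and 11.1%). They were led by CCNE2, the S-phase cyclin E2, with 32.3, 38.7 and 40.0 CPM in HUWE1-P, 36.5, 38.2 and 40.7 in HUWE1-WT and 19.0, 6.81 and 13.9 in HUWE1-CS cells (log2 -1.50, adjusted p = 3.91e-09, edgeR). Of 25 G2/M genes 2 were called lower against HUWE1-P cells (8%, where 8.58% of all genes were). Against HUWE1-WT cells 4 were (16%, where 8.08% of all genes were), and none was called higher in either comparison. The proliferation marker MKI67 had the smallest p-value of the list in both comparisons. Its log2 fold change was -0.75 (adjusted p = 6.11e-17, edgeR) against HUWE1-P and -0.56 against HUWE1-WT cells.

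Genes known as p53 targets, a list also chosen with earlier results of these data known, moved with the same libraries. Of 23 measured ones, 19 were called higher against HUWE1-P cells (82.6%, where 8.46% of all genes were). Against HUWE1-WT cells 16 were (69.6%, where 7.42% of all genes were). None was called lower, and the medians were 0.71 and 0.66. GDF15 had the smallest p-value of the list in both comparisons (adjusted p = 3.74e-37 and 5.59e-34, edgeR). CDKN1A, which encodes the cyclin-dependent kinase inhibitor p21, was at 159, 155 and 156 CPM in HUWE1-P, 185, 172 and 159.9 in HUWE1-WT and 405, 412 and 421 in HUWE1-CS cells (log2 1.40, adjusted p = 7.87e-32, edgeR). The summed level of the list was 1428 to 1559.6 CPM in the 6 control libraries and 2831 to 2854 CPM in the HUWE1-CS libraries. The part of these genes, of the cell cycle markers or of HUWE1 in the values of the replication genes was not tested.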

How the data were processed

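RNA-seq was analysed in 3 libraries each of the HUWE1-P, the HUWE1-WT and the HUWE1-CS line. The labels name a poly(A) selection and a library kit whose description does not mark strand. The authors made the reads with bcl2fastq 2.20 and mapped them to hg19 with STAR 2.5.4 (per the submitters' processing notes, which also name edgeR 3.26.8), and deposited whole-number counts per gene without normalization. The counting tool, annotation, strand setting and rule for low genes are not given in the sources used here. Deposited tables of the authors' own comparisons hold log2 fold changes, mean log2 CPM, F, p and FDR and were not used.

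Counts were scaled by TMM and fitted with edgeR 4.0.16 (glmQLFit with the older estimator, glmQLFTest, line as the only term, all 9 libraries) in R 4.3.3, with Benjamini-Hochberg adjustment over all 11350 genes and an FDR of at most 0.01. filterByExpr kept every gene, so all 53 members were tested. The 147 genes without a symbol (0.505% of counts) stayed in. Totals were 1610984 to 2060349 counts, the biological coefficient of variation was 4.77%, and chi-square per degree of freedom between replicates was 1.16 to 1.65, so no library was treated as a duplicate. Fold changes have 95% intervals from the same fit. In 2 simulated data sets of 11350 genes with 200 changed, made for HUWE1-CS against HUWE1-P, 2 of 233 calls were false, and 37.0% of genes changed by 0.5 and 78.5% of those changed by 1 on the log2 scale were called.

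The members, their groups and the other lists were chosen with earlier results of these data known. Named were all called members, the smallest p-value of each group, MCM2, MCM5, CDC45, PCNA and CDC6, CDKN1A and HUWE1. The called gene with the smallest p-value was also named for the other replication genes together and for the E2F, G2/M and p53 lists. Further members are given as values chosen after they were seen. Gene positions, lengths and overlaps came from GENCODE on GRCh37, and promoters from RefSeq on GRCh38.p14, with no coordinates moved between builds. Levels per kb use the transcript of the longest coding sequence, since the median transcript length, meant to be the main choice, proved to be set by short fragments for some members. Replicate numbers were taken from the labels and were not used to pair the samples in the main fit. The correlations of same-numbered libraries' deviations were -0.0195 to 0.0579, and those of other-numbered libraries -0.0653 to 0.0333. These ranges overlap and do not settle whether libraries were made in replicate sets.

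Alternatives were DESeq2 1.42.0, limma-voom (limma 3.58.1), the newer edgeR estimator, a minimum of 10 counts, total counts or RLE size factors as scaling, only the lines compared, a robust fit, a replicate block with and without a GC correction, a trend with transcript length removed, each library left out, and an FDR of 0.05.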

Additional observations from a re-analysis of the deposited data

How the results depend on the processing

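Members called against HUWE1-P cells numbered 12 (11 lower), and 21 at an FDR of 0.05, 3 with DESeq2 and 4 to 12 with each library left out in turn; under the other alternatives the number was 10 to 18. Against HUWE1-WT cells it was 9 (7 lower), and 16 at an FDR of 0.05, 4 with DESeq2, 6 to 9 with each library left out, and 9 to 12 under the other alternatives. With HUWE1-CS set against the mean of both controls, chosen after seeing the data, the number was 18. In HUWE1-WT against HUWE1-P cells it was 0 under every alternative run. Shares of all genes are given above only for the main fit, DESeq2 and the comparison with the mean of both controls. The other counts here show no trait of the members by themselves. The median log2 fold change of the members kept its sign against HUWE1-P (-0.18 to -0.12) and against HUWE1-WT cells (-0.14 to -0.10). With the replicate number as a block, 12, 9 and 0 members were called, the same counts as without it; with a GC correction added they were 13 and 12 in the comparisons of HUWE1-CS cells, and both calls of DBF4 were lost. The replicate numbers were not used as pairs in the main fit, and not every library correlated best with its own number.

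For single named members, 50 calls were lost and 6 gained with a library left out, and 27 lost and 10 gained under other alternatives. The signs that turned were all in HUWE1-WT against HUWE1-P cells, where no member was called: CDC6 became 0.00689, 0.00728 and 0.0724 without HUWE1-P replicate 1, HUWE1-P replicate 2 and HUWE1-WT replicate 2, CDC45 became -0.0882 without HUWE1-P replicate 1, and PCNA became -0.00937 and -0.0140 without HUWE1-P replicate 2 and HUWE1-WT replicate 2. With each library left out, CDC6 ranged from -0.0645 to 0.0724, CDC45 from -0.0882 to 0.286 and PCNA from -0.0140 to 0.0833. The cause of these changes was not tested. The ratio of MCM7 to MCM6 per kb in HUWE1-P cells was 2.97 with the longest coding transcript and 3.65 with the median transcript length, which also moved RFC1 from 32.3 to 270.5 and ORC2 from 15.96 to 125 CPM per kb. The E2F share of member promoters was 34.5% with the first 2 spellings alone.

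In the simulations described with the processing, made at the depth and replicate number of these libraries, 37.0% of changes of 0.5 on the log2 scale were called. The 200 changed genes were drawn at random from all 11350, with the same dispersion for every gene. More genes were called in the data, so 37.0% is not the rate for the members. A missed threshold by itself does not show equal levels.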

Other observations

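Of the 53 members 18 start within 1000 bases of another gene of the table that runs the opposite way, and 8 of these 18 were called in at least 1 comparison (44.4%). Of the 1812 genes of the table with such a neighbour 17.6% were. None of the partners of these 8 was called in the same comparison, as was a partner for 17.6% of the 319 called genes with such a neighbour. The start of ORC1 lies 179 bases from that of PRPF38A (log2 fold change -0.11 against HUWE1-P and -0.17 against HUWE1-WT cells), that of RECQL4 147 bases from LRRC14 (0.06 and 0.11), and that of POLE 211 bases from PXMP2 (0.11 and -0.01). FEN1 starts 109 bases from TMEM258 (0.31 and 0.24), LIG1 77 bases from ZSWIM9 (0.40 and -0.23), and DBF4 144 bases from SLC25A40 (-0.25 and -0.25). The uncalled TIPIN (-0.46 and -0.32) starts 91 bases from MAP2K1 (0.05 and 0.12). These pairs were looked at after the values were seen, and the difference between partners was not tested.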
